A study of Mus musculus with 18 samples.

Results

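The genes described here are 10 genes of bile acid synthesis, conjugation, transport and feedback control, read in mouse liver: Cyp7a1, Cyp8b1, Cyp27a1, Cyp7b1, Baat, Slc27a5, Slc10a1, Abcb11, Nr1h4 and Nr0b2. They were chosen by symbol, for their known roles, and all 10 were found among the 55291 gene symbols of the liver table. The study sequenced RNA of liver and pancreas from mice with a knocked-out Otub2, a deubiquitinase gene, to learn what the enzyme does in the beta cell. Livers came from 5 heterozygotes (labelled OTUB2 +/- and called HET) and 2 wild types (OTUB2 +/+, called WT), so that every result on liver concerns the loss of 1 copy. Pancreata came from 3 homozygous knock-outs (OTUB2 -/-, HOM, all male) and from 5 HET and 3 WT of both sexes. Strain, age, feeding state and time of collection, the sex of the liver donors, the deleted part of Otub2 and whether each sample is a separate animal are not stated in the labels. If some samples share an animal, the p-values measure only the spread between samples.

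Bile acids are made from cholesterol in hepatocytes, carried into bile to solubilise fat, taken up again in the ileum and returned to the liver in portal blood. The classic route starts with CYP7A1, whose step limits the rate, and CYP8B1 then decides how much cholic acid is made. An alternative route starts with CYP27A1 and continues with CYP7B1. Returning bile acids activate the nuclear receptor FXR (gene Nr1h4), which induces the corepressor SHP (Nr0b2) and the export pump BSEP (Abcb11). FXR also holds down Cyp7a1, in liver through SHP and from the ileum through the hormone FGF15 and its receptor FGFR4.

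Liver libraries held 264660 to 1686234 counts in HET and 155201 and 342609 in WT, and levels are given as CPM (counts scaled to the same total, 1000000, in each library). The hepatocyte markers fixed for this work, of which 7 of 8 had a row and all 7 had counts, summed to 59042 to 74785 CPM in HET and 72996 and 81920 CPM in WT, which bears out the tissue label. Of 8 pancreas acinar markers, 5 (Prss2, Cpa1, Cpb1, Amy2a5 and Clps) were at 0 in all 7 livers, and the 8 summed to 95.6 to 192 CPM in HET and 37.9 and 70.9 CPM in WT. Cela1 alone made up this sum in HET 1 to HET 4 and WT 1, with 95.6 to 136 CPM in HET and 70.9 and 35.0 CPM in WT, and the rest was Ctrb1 in HET 5 and Pnlip in WT 2 (2.92 CPM). Markers of bile duct cells (6 of 7 with counts, Cftr at 0) summed to 11.0 to 31.9 CPM in 4 HET livers, 119.8 CPM in HET 5 and 6.44 and 26.3 CPM in WT, those of Kupffer cells (7 of 7) to 279 to 651 CPM in HET and 593 and 645 CPM in WT, of endothelial cells (6 of 6) to 49.1 to 149 CPM in HET and 103 and 105 CPM in WT, of stellate cells (6 of 6) to 21.9 to 44.4 CPM in HET and 35.0 and 64.4 CPM in WT, and of ileum enterocytes (4 of 6, Fabp6 and Alpi at 0) to 202 to 916 CPM in HET and 361 and 744 CPM in WT, of which Apoa4 alone gave 197 to 906 CPM in HET and 354 and 738 CPM in WT. Otub2 had 0 to 3.78 CPM in HET and 0 and 6.44 CPM in WT livers, too few to check the genotype labels. Shares of ribosomal RNA (0.388% to 4.07% in HET, 2.70% and 1.32% in WT) and of protein-coding genes (93.4% to 97.6% in HET, 94.6% and 95.1% in WT) overlapped. Besides Cela1, several other measures of the libraries parted the genotypes without overlap. Of all genes tested, 6.95% had every HET liver above both WT livers and 11.1% had every HET liver below. Transcripts of mitochondrial DNA took 0.109% to 0.243% of counts in HET and 0.248% and 0.288% in WT, ribosomal protein genes took 3.83% to 5.07% in HET and 3.39% and 3.54% in WT, the predicted gene Gm10800 took 0% to 0.115% in HET and 0.137% and 0.194% in WT, and the nuclear noncoding RNA Malat1 had 140.3 to 249.7 CPM in HET and 367 and 1635 CPM in WT. HET 5 stood apart by its depth, by 0 counts of Gm10800 and by counts of the duct keratin Krt19 (49.8 CPM) and the pancreatic protease Ctrb1 (55.7 CPM), which had at most 3.78 and 0 CPM in the other 6 livers. Acute-phase genes (Saa1, Saa2, Orm1, Lcn2 and Crp) summed to 24045 CPM in HET 3 and 9465 CPM in HET 2, against 1445 to 3110 CPM in the other 3 HET and 2207 and 2216 CPM in WT. The part of these measures in the results on bile acid genes was not tested.

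**Figure D1:**
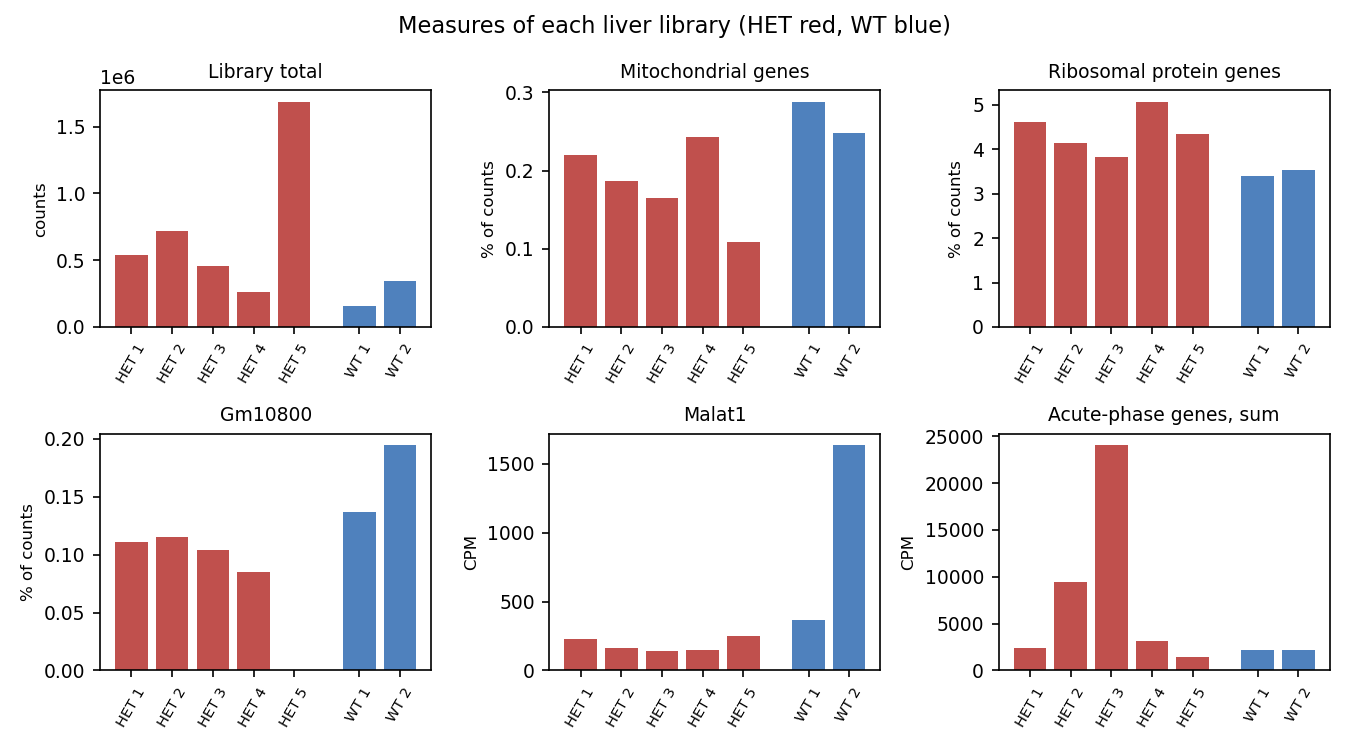
Measures of each liver library, with one bar for each of the 5 HET (red) and 2 WT (blue) livers: total counts, share of counts in percent, or CPM. WT livers lie above every HET liver in mitochondrial genes, Gm10800 and Malat1 and below every HET liver in ribosomal protein genes, and HET 3 has the highest acute-phase sum, 24045 CPM.

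Together the 10 genes made up 0.214% to 0.399% of the counts in HET livers and 0.252% and 0.203% in WT 1 and WT 2. Their summed level was 3110, 2549, 2135, 2826 and 3994 CPM in HET 1 to HET 5, a mean of 2923 ± 698 CPM (SD, n = 5), and 2519 and 2031 CPM in WT 1 and WT 2, a mean of 2275 ± 345 CPM (SD, n = 2). The groups overlapped, and HET 5 was the highest. In these libraries a count comes from the 3′ end of a transcript and does not depend on its length, so CPM was used to set the genes in order. Whether a low CPM stands for a low transcript level was not tested, and some genes that liver is known to make in quantity were scarce here, such as the fibrinogen gene Fgb with 3.78 to 8.77 CPM in HET and 5.84 and 12.9 CPM in WT. The order is therefore one of counts in these libraries. Averaged over the 7 livers, the order was Slc27a5 (834 ± 177 CPM, SD, n = 7), Abcb11 (507 ± 94.1), Cyp8b1 (442 ± 181), Cyp27a1 (374 ± 189), Baat (253 ± 70.0), Nr1h4 (134 ± 24.1), Slc10a1 (77.8 ± 67.0), Nr0b2 (60.9 ± 53.3), Cyp7a1 (31.1 ± 30.5) and Cyp7b1 (23.0 ± 39.5). Slc27a5 exceeded Abcb11, and Baat exceeded Nr1h4, in 7 of 7 livers (two-sided exact permutation test of the log2 difference, p = 0.0156, the smallest that 7 livers allow, and 0.0703 adjusted over the 9 neighbouring pairs). Nr1h4 exceeded Slc10a1 in 6 of 7 (exact p = 0.0312, 0.0938 adjusted). The other 6 neighbouring pairs, with adjusted exact p = 0.253 to 0.359, did not differ beyond their spread. None of the 9 pairs had an adjusted exact p below 0.0703. Since 7 livers allow no exact p below 0.0156, even a pair in the same order in 7 of 7 did not pass. No pair is therefore taken to differ, and none is taken to be alike. The pairs were also formed by sorting the same values, so these tests cannot establish the order. By mean CPM alone, the ligase gene Slc27a5 and the export pump gene Abcb11 came first. Cyp7a1 and Cyp7b1, the 7-alpha-hydroxylases of both routes, came last by the same means. Abcb11 exceeded Cyp8b1 in 5 of 7 livers, and Nr0b2 exceeded Cyp7a1 in 5 of 7.

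**Figure D2:**
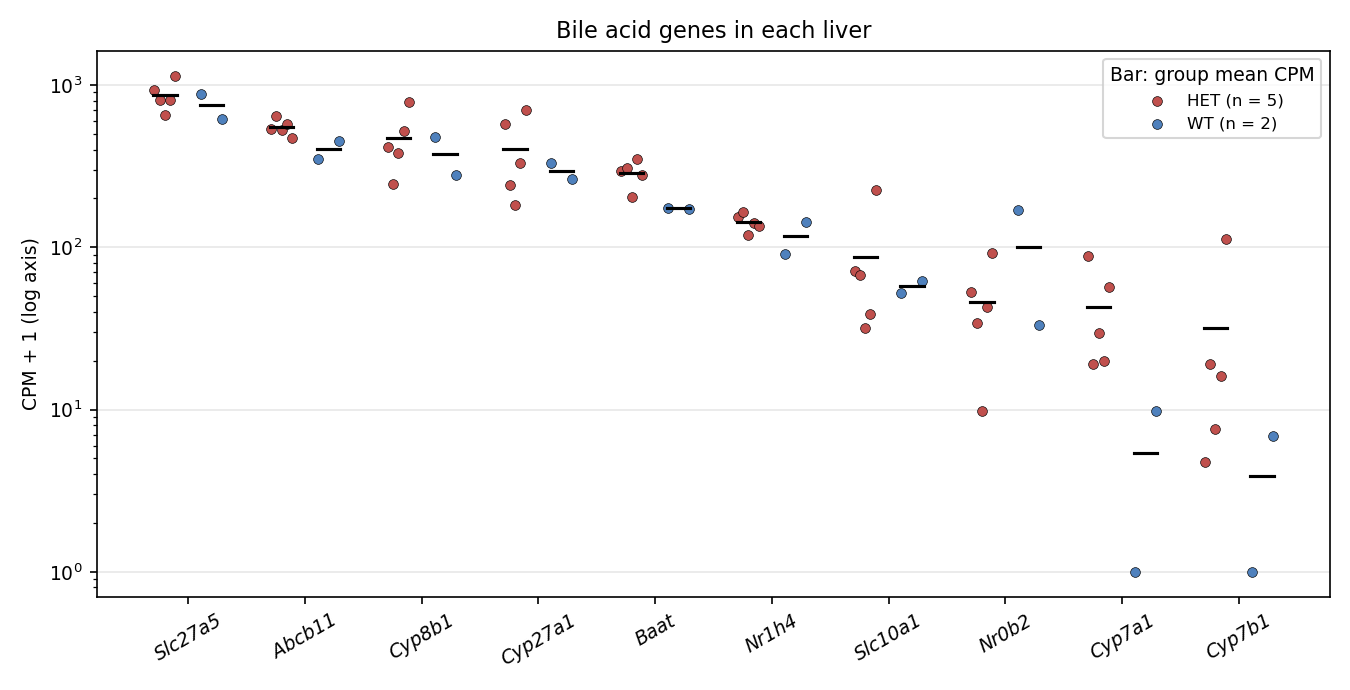
Level of each of the 10 genes in the 5 HET (red, left) and 2 WT (blue, right) livers, as CPM + 1 on a log axis, in order of the mean over 7 livers, with a bar at the mean of each group. In Cyp7a1, Baat and Abcb11 every HET point lies above both WT points, and Cyp7a1 and Cyp7b1 have a WT liver at 0 counts.

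Heterozygotes were compared with wild types across the whole liver table, to ask what loss of 1 Otub2 copy does in liver. No bile acid gene passed the test. With edgeR's quasi-likelihood test and Benjamini-Hochberg adjustment, 0 of 9 members tested had an adjusted p under 0.05, against a background of 0% (0 of 4803 genes), and Cyp7b1 had too few counts to pass the filter on low counts. At an unadjusted p under 0.05 the numbers were 2 of 9 members (Cyp7a1 and Baat) and 497 of 4803 genes, and DESeq2 called 0 of 9 members and 16 genes. Of the 9 tested, 8 had a positive log2 fold change of HET over WT, and the median was 0.53, beside 2501 of 4803 positive and a median of 0.03 over all genes tested. In 3 of the 9 (Cyp7a1, Baat and Abcb11) every HET liver was above both WT livers, which held for 6.95% of the genes tested. None of the 9 had every HET liver below both WT livers, where the share of all genes was 11.1%. Several library measures, given above, parted the same groups without overlap. Their relation to these 3 genes was not tested.

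Cyp7a1 encodes cholesterol 7-alpha-hydroxylase, the first enzyme of the classic route, and lies on chromosome 4 (6265612 to 6275633, minus strand of mm10, ENSMUSG00000028240.2). It had 47, 13, 13, 5 and 94 counts in HET 1 to HET 5, or 87.5, 18.0, 28.5, 18.9 and 55.7 CPM, against 0 and 3 counts, or 0 and 8.76 CPM, in WT 1 and WT 2. HET 1 and HET 5 were the highest, and every HET liver was above both WT livers. In WT 1 a count of 0 allows up to 19.3 CPM (3 counts), which is above HET 2 and HET 4. The log2 fold change was 2.93 ± 0.93 (SE) with an edgeR adjusted p = 0.294, on means of 41.7 ± 29.8 CPM in HET (SD, n = 5) and 4.38 ± 6.19 CPM in WT (SD, n = 2). Over the summed counts of each genotype, 172 of 3665748 in HET and 3 of 497810 in WT, the ratio of HET to WT was 7.79 (exact 95% interval, 2.62 to 38.1, counting error only). Without HET 5 the ratio was 6.54 (2.16 to 32.4). Both intervals leave out the spread between livers and are no test of genotype. The call depended on the filter: with no filter beyond 1 count, the adjusted p over 18552 genes was 0.0462 and the log2 fold change 3.06 ± 0.80. Over leaving out each liver the adjusted p ran from 0.204 to 0.775, and without WT 2 the remaining WT library held 0 counts. When all livers were thinned at random to the 155201 counts of WT 1, the HET livers held 9, 3, 6, 4 and 14 counts of Cyp7a1 and the WT livers 0 and 1, under the filter.

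Cyp8b1 encodes sterol 12-alpha-hydroxylase, which turns the classic route toward cholic acid, and is a gene on chromosome 9 (121914356 to 121916305, minus strand). Its level was 413, 245, 379, 518 and 787 CPM in HET 1 to HET 5 and 477 and 277 CPM in WT 1 and WT 2. The groups overlapped, with the highest value in HET 5 and the lowest in HET 2 (468 ± 203 CPM in HET and 377 ± 141 CPM in WT, mean ± SD, log2 fold change 0.39 ± 0.37 SE, edgeR adjusted p = 0.752). Within a library Cyp8b1 had 4.72, 13.6, 13.3, 27.4 and 14.1 times the counts of Cyp7a1 in HET 1 to HET 5 and 31.7 times in WT 2, and no ratio can be given for WT 1. Among the HET livers the ratio ran from 4.72 in HET 1, on 47 counts of Cyp7a1, to 27.4 in HET 4, on 5 counts. The ratio of WT 2 rested on 3 counts of Cyp7a1. Counting error alone allows 6.13 to 44.1 CPM of Cyp7a1 in HET 4 and 1.81 to 25.6 CPM in WT 2. These counts are too few to set HET 4 apart from HET 2, HET 3 and HET 5, or to place it near WT 2.

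Cyp27a1 encodes sterol 27-hydroxylase, the mitochondrial enzyme that opens the alternative route, and lies on chromosome 1 (74713574 to 74737892, plus strand). It had 575, 243, 182, 329 and 696 CPM in HET 1 to HET 5, against 329 and 263 CPM in WT 1 and WT 2 (log2 fold change 0.53 ± 0.43 SE, edgeR adjusted p = 0.710). HET livers lay on both sides of the WT livers, with means of 405 ± 221 CPM in HET and 296 ± 46.6 CPM in WT (SD). Cyp7b1 encodes oxysterol 7-alpha-hydroxylase, the next enzyme of that route (chromosome 3, 18071950 to 18243338, minus strand). It had 2, 13, 3, 4 and 188 counts in HET 1 to HET 5, or 3.72, 18.0, 6.58, 15.1 and 111 CPM, against 0 and 2 counts, or 0 and 5.84 CPM, in WT 1 and WT 2. HET 5 alone held 188 of the 212 counts in 7 livers, and HET 1 was below WT 2. Its pooled ratio of HET to WT was 14.3 (exact 95% interval, 3.90 to 119, counting error only), and without HET 5 it was 2.77 (0.680 to 24.3). These intervals leave out the spread between livers, so neither is a test of genotype. In the fit with no filter its log2 fold change was 3.31 ± 1.05 (SE, edgeR adjusted p = 0.180). Cyp27a1 had 155, 13.5, 27.7, 21.8 and 6.24 times the counts of Cyp7b1 in HET 1 to HET 5 and 45 times in WT 2, so HET 5 had the smallest step between the enzymes of this route. As a share of the counts of the 10 genes, which does not depend on library scaling, Cyp7b1 took 2.79% in HET 5 (Wilson 95% interval, 2.42 to 3.21) and 0.120% to 0.707% in the other HET livers, against 0% and 0.287% in WT 1 and WT 2.

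Conjugation with taurine or glycine makes bile acids soluble, and needs the ligase encoded by Slc27a5 to form the coenzyme A ester and the transferase encoded by Baat to attach the amino acid. Slc27a5 (chromosome 7, 12988346 to 12998192, minus strand) had 927, 812, 651, 809 and 1143 CPM in HET 1 to HET 5, against 883 and 616 CPM in WT 1 and WT 2. The groups overlapped (log2 fold change 0.29 ± 0.29 SE, edgeR adjusted p = 0.762). Baat (chromosome 4, 49489422 to 49506557, minus strand) had 294, 306, 202, 348 and 276 CPM in HET 1 to HET 5, against 174 and 172 CPM in WT 1 and WT 2. All HET livers were above both WT livers, which lay within 2 CPM of each other. The log2 fold change was 0.81 ± 0.31 (SE) with an edgeR adjusted p = 0.393, on means of 285 ± 53.6 CPM in HET and 173 ± 1.24 CPM in WT (SD). Counts of Slc27a5 were 2.33 to 4.14 times those of Baat in HET and 5.07 and 3.58 times in WT.

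Slc10a1 encodes NTCP, the sodium-dependent transporter that takes bile acids from blood into the hepatocyte (chromosome 12, 80953183 to 80968705, minus strand). It had 70.7, 66.5, 30.7, 37.8 and 226 CPM in HET 1 to HET 5, against 51.5 and 61.3 CPM in WT 1 and WT 2. HET 5 stood far above the other 6 livers, and the other HET livers lay around the WT livers. The log2 fold change of 0.72 ± 0.69 (SE, edgeR adjusted p = 0.760) rested on HET 5, since without that library it was 0.00 ± 0.24 (adjusted p = 1.00). Abcb11 encodes BSEP, which pumps conjugated bile acids into the canaliculus (chromosome 2, 69238282 to 69342616, minus strand). It had 534, 643, 528, 571 and 474 CPM in HET 1 to HET 5, against 348 and 452 CPM in WT 1 and WT 2. Every HET liver was above both WT livers, HET 5 and WT 2 being the closest. The log2 fold change was 0.55 ± 0.29 (SE) with an edgeR adjusted p = 0.522, on means of 550.0 ± 62.5 CPM in HET and 400.2 ± 73.9 CPM in WT (SD). In thinned libraries Abcb11 had 71 to 92 counts in HET and 54 and 79 in WT, and the groups overlapped. Export and uptake did not share a pattern: Abcb11 had 7.55, 9.67, 17.2, 15.1 and 2.10 times the counts of Slc10a1 in HET 1 to HET 5 and 6.75 and 7.38 times in WT 1 and WT 2.

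Nr1h4, the gene of the bile acid receptor FXR (chromosome 10, 89454234 to 89533585, minus strand), had 153, 164, 118, 140 and 133 CPM in HET 1 to HET 5, against 90.2 and 143 CPM in WT 1 and WT 2. It had the smallest spread of the 10 genes, with a coefficient of variation of 18.0% over 7 livers, and the groups overlapped (log2 fold change 0.35 ± 0.34 SE, edgeR adjusted p = 0.761). Nr0b2, the gene of the corepressor SHP that FXR induces (chromosome 4, 133553376 to 133556536, plus strand), had 52.1, 33.3, 8.77, 41.6 and 90.7 CPM in HET 1 to HET 5, against 168 and 32.1 CPM in WT 1 and WT 2. It was the only member tested with a negative log2 fold change, −0.92 ± 0.72 (SE, edgeR adjusted p = 0.696). That direction rested on WT 1, where 26 counts gave the highest value of the 7 livers: without WT 1 the log2 fold change was 0.70 ± 0.83 (adjusted p = 0.808). WT 2 lay within the range of the HET livers. Within a library Nr1h4 had 2.93, 4.92, 13.5, 3.36 and 1.47 times the counts of Nr0b2 in HET 1 to HET 5 and 0.538 and 4.45 times in WT 1 and WT 2, so WT 1 was the one liver with more Nr0b2 than Nr1h4.

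**Figure D3:**
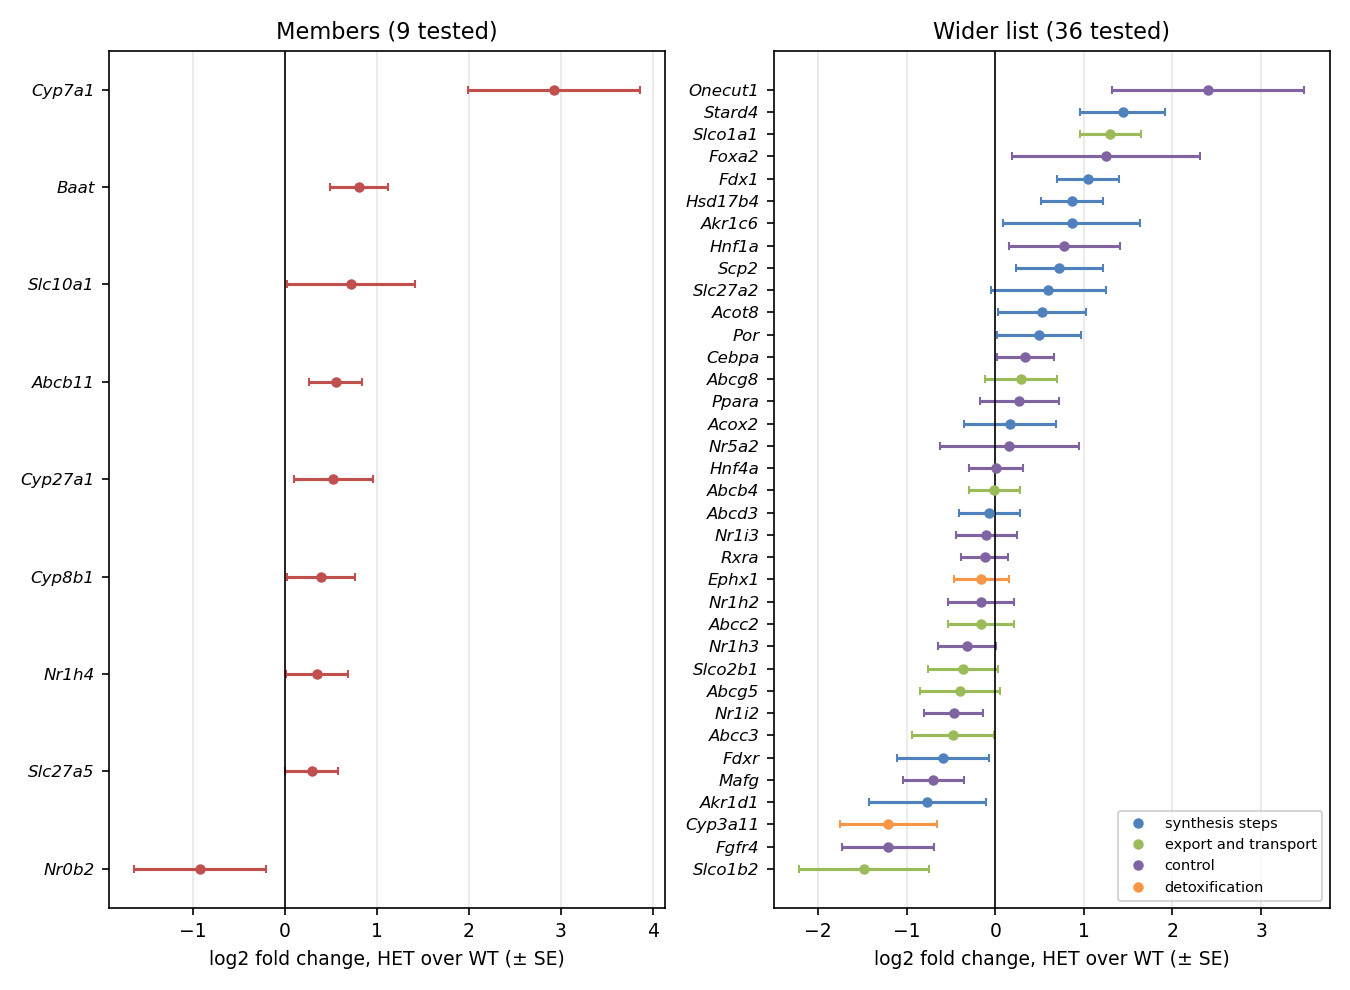
Log2 fold change of HET over WT livers with its standard error (edgeR, 5 against 2 livers), for the 9 members tested on the left and the 36 tested genes of the wider list on the right, coloured by role. Cyp7a1 is highest among the members at 2.93 and Nr0b2 is the one below 0, at −0.92, and none of the 45 genes passed at an adjusted p of 0.05.

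FXR and both of its classic targets among the members have a start site in RefSeq's promoter table (build GRCm38.p6, the assembly of mm10), so the 250 bases before each start are shown for them, 5′ to 3′ on the strand of the gene. Capitals mark the nuclear receptor core motif AGGTCA or its reverse complement TGACCT, the letters to which FXR and related receptors bind in pairs. The window of Nr1h4 belongs to a start within the gene's GENCODE span.
Abcb11, chr2:69342617-69342866, minus strand: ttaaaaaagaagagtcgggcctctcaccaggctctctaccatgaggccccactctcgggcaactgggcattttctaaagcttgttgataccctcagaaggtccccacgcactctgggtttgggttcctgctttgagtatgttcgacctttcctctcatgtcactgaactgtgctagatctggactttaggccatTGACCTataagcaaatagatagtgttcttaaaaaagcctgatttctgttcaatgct
Nr1h4, chr10:89506659-89506908, minus strand: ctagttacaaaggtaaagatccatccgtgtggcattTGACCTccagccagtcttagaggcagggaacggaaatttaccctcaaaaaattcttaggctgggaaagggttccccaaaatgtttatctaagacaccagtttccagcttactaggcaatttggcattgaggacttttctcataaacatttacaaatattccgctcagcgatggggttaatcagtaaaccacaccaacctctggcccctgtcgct
Nr0b2, chr4:133553126-133553375, plus strand: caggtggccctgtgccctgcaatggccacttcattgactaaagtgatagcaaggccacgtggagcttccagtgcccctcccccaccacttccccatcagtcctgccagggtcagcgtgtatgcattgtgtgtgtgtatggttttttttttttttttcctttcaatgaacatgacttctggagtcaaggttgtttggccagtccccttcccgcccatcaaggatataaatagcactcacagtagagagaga
The core motif occurred once in the Abcb11 window, at −56 to −51 from the start, once in the Nr1h4 window, at −214 to −209, and not in the Nr0b2 window. Of the other members it occurred in 1 of the 2 windows of Slc10a1, at −87 to −82. On both strands it was found in 14.0% of the 32851 windows in the table. Also searched were 3 longer motifs that hold it: the LRH-1 site CAAGGTCA (1.33% of windows), 2 copies of the core motif as an inverted repeat 1 base apart (IR-1, 0.00609%) and 2 copies as a direct repeat 1 base apart (DR1, 0.0335%). No exact copy of these occurred in the windows of the 6 members that matched the table (Cyp27a1, Abcb11, Nr0b2, Cyp8b1, Nr1h4 and Slc10a1), which says only that these letters are not in them. Copies with a mismatch were not searched for. In the Abcb11 window the capitals follow the letters aggccat, which differ from an exact IR-1 at 1 base. The Nr0b2 window likewise holds gggtca, which differs from the core motif at 1 base. Both were noticed by eye, and the share of windows with such near copies was not computed. They therefore do not set these genes apart.

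Other genes of bile acid metabolism were read from a wider list of 60, of which 36 were tested, 7 had 0 counts in every liver and 17 were below the filter. None of the 36 passed with edgeR or DESeq2. An unadjusted edgeR p under 0.05 was found in 7 of the 36, beside 497 of all 4803 genes tested. The log2 fold change was positive in 18 and negative in 18, with a median of 0.00, beside 2501 of 4803 positive. In 3 every HET liver was above both WT livers (Stard4, Fdx1 and Slco1a1) and in 2 below (Fgfr4 and Mafg) of the 36, beside 6.95% and 11.1% of all genes tested. Of 19 genes for synthesis steps, 12 were tested and 9 of them had a positive log2 fold change, beside the same 2501 of 4803. Stard4, a carrier of cholesterol between membranes, averaged 83.3 ± 25.7 CPM in HET (SD, n = 5) and 32.2 ± 0.0776 CPM in WT (SD, n = 2), with a log2 fold change of 1.44 ± 0.48 (SE, edgeR adjusted p = 0.317). Fdx1, the ferredoxin that passes electrons to mitochondrial P450 enzymes such as CYP27A1, averaged 270.3 ± 65.9 CPM in HET and 141 ± 55.3 CPM in WT (log2 fold change 1.05 ± 0.36 SE, adjusted p = 0.331). Por, the reductase that serves microsomal P450 enzymes, averaged 1564 ± 696 CPM in HET and 1201 ± 514 CPM in WT (adjusted p = 0.760), and the sterol carrier gene Scp2 590 ± 306 CPM in HET and 380.1 ± 228 CPM in WT (adjusted p = 0.649).

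Of 15 genes of export and transport, 8 were tested, 2 with a positive log2 fold change, beside 2501 of all 4803 genes tested. Slco1a1, an uptake transporter of organic anions, had 264, 295, 226, 295 and 307 CPM in HET 1 to HET 5, against 155 and 90.5 CPM in WT 1 and WT 2. All HET livers were above both WT livers, and its adjusted p of 0.242 was the smallest of the wider list (edgeR, log2 fold change 1.30 ± 0.34 SE). Its relative Slco1b2, also an uptake transporter, averaged 18.3 ± 12.3 CPM in HET and 51.8 ± 36.1 CPM in WT, the other direction (log2 fold change −1.48 ± 0.73 SE, adjusted p = 0.501). These genes have near copies in the genome, so reads may have been shared between them. Abcb4, the phospholipid exporter of the canaliculus, averaged 239 ± 17.5 CPM in HET and 256 ± 2.68 CPM in WT, a log2 fold change of −0.01 ± 0.28 (adjusted p = 0.995).

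Of 20 control genes, 14 were tested, 7 with a positive log2 fold change, beside 2501 of all 4803 genes tested. Fgfr4, the hepatocyte receptor for the ileal hormone FGF15, had 13.0, 19.4, 13.2, 15.1 and 24.3 CPM in HET 1 to HET 5, against 32.2 and 52.5 CPM in WT 1 and WT 2. Every HET liver was below both WT livers (log2 fold change −1.21 ± 0.52 SE, edgeR adjusted p = 0.434). Onecut1, a hepatocyte transcription factor, averaged 41.4 ± 30.2 CPM in HET and 5.84 ± 8.26 CPM in WT, and had 0 counts in WT 1 (adjusted p = 0.472). Cebpa averaged 946 ± 193 CPM in HET and 804 ± 353 CPM in WT, and Rxra, the partner of FXR, 593 ± 47.4 CPM in HET and 689 ± 99.2 CPM in WT (adjusted p = 0.753 and 0.909). Of 6 detoxification genes 2 were tested, Cyp3a11 with 46.9 ± 29.1 CPM in HET and 119 ± 77.6 CPM in WT (adjusted p = 0.466) and Ephx1 with 384 ± 109 CPM in HET and 456 ± 112 CPM in WT (adjusted p = 0.903). Fgf15 and the ileal bile acid carrier Fabp6, both genes of the intestine, had 0 counts in all 7 livers.

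The makeup of the 10 genes within each liver can be read without any scaling of libraries. Slc27a5 took the largest share in all 7 livers, 28.6% to 31.9% in HET and 35.0% and 30.3% in WT. Cyp7a1 took 2.81%, 0.707%, 1.33%, 0.668% and 1.40% in HET 1 to HET 5, against 0% (Wilson 95% interval, 0 to 0.973) and 0.431% (0.147 to 1.26) in WT 1 and WT 2. Every HET liver was above both WT livers in this share too, though the interval of WT 2 takes in the shares of HET 2 and HET 4. The groups overlapped in the share of Baat, at 6.92% to 12.3% in HET and 6.91% and 8.48% in WT, and in that of Abcb11, at 11.9% to 25.2% in HET and 13.8% and 22.3% in WT. Nr0b2 took 6.65% in WT 1, against 0.411% to 2.27% in HET and 1.58% in WT 2. HET 5 differed from the other HET livers in holding the lowest share of Abcb11 (11.9%) and the highest of Slc10a1 (5.66%) and Cyp7b1 (2.79%).

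**Figure D4:**
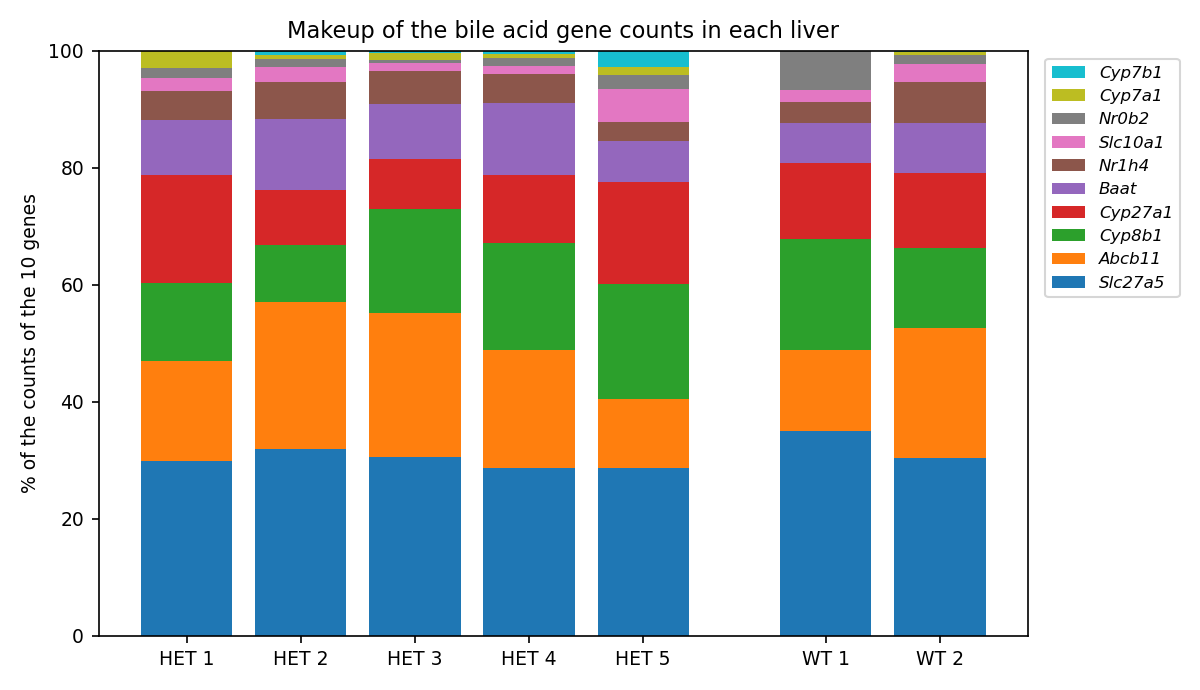
Share of each gene in the summed counts of the 10 genes, in percent, for the 5 HET livers on the left and the 2 WT livers on the right. Slc27a5 takes 28.6% to 35.0% in every liver, Cyp7b1 and Slc10a1 are widest in HET 5, and Nr0b2 is widest in WT 1, at 6.65%.

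HET 5 had the highest HET value of 5 of the 9 tested members, as in 32.4% of all genes tested, and HET 3 had the lowest of 6 of the 9 (Cyp27a1, Baat, Slc27a5, Slc10a1, Nr1h4 and Nr0b2), as in 25.5% of all genes tested. HET 3 also had the highest acute-phase sum, and HET 2 the next highest. HET 2 had the lowest HET value of 2 of the 9 (Cyp7a1 and Cyp8b1), as in 18.2% of all genes tested. It had the highest of 2 (Abcb11 and Nr1h4), as in 10.5% of all genes tested. For Cyp7a1, HET 2 (18.0 CPM, 13 counts) and HET 4 (18.9 CPM, 5 counts) lay close together. The part of the acute-phase response in these values was not tested. Markers of hepatocytes around the central vein, where Cyp7a1 is known to be expressed, summed to 6491 to 10854 CPM in HET and 4133 and 6701 CPM in WT (9 of 9 with counts), and those around the portal vein to 12032 to 20006 CPM in HET and 12223 and 15554 CPM in WT (9 of 9). In whole tissue, fewer cells of a type and less RNA per cell cannot be told apart. Genes of the clock and its output (Dbp, Nr1d1, Per1, Per2, Arntl and Ciart) summed to 426 to 658 CPM in HET and 548 and 905 CPM in WT. They are given because bile acid synthesis follows the time of day. Single genes did not move together. Dbp had 116 and 540 CPM in WT 1 and WT 2 and 223 to 386 CPM in HET. Nr1d1 had 367 and 236 CPM in WT 1 and WT 2 and 40.2 to 339 CPM in HET. The sum therefore does not show whether the livers were alike in time of day, which was not tested.

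Among 4623 other named genes tested, those whose log2(CPM + 1) followed the summed level of the 10 most closely over the 7 livers were Etfa, Cisd1, Serpina3m, Vdac1 and Scarb2 (Pearson's r = 0.997 to 0.972). Etfa, a subunit of the electron transfer flavoprotein of mitochondria, had 52.1, 25.0, 11.0, 34.0 and 170 CPM in HET 1 to HET 5, against 19.3 and 8.76 CPM in WT 1 and WT 2. Closest to Cyp7a1 were the carboxylesterase gene Ces1c (r = 0.995), Ppp2r5e (0.979) and Ranbp9 (0.970). Closest to Cyp8b1 were Cyp2c54 (0.976), Bhmt (0.968) and Larp1 (0.965). These are the highest of 4623 values over 7 points that share depth and library, and serve as a description only. Ces1c and Cyp2c54 belong to families of near copies, as Cyp3a11 does, so their counts are uncertain.

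In pancreas, which does not make bile acids, Cyp8b1, Cyp27a1, Baat, Abcb11 and Nr1h4 had 0 counts in all 11 libraries, against 579 (Nr1h4) to 2205 (Cyp8b1) counts in the 7 livers. Over the 3005022 pooled counts of the 11 pancreata a count of 0 allows up to 0.998 CPM, but single libraries allow far more. Their totals ran from 49502 counts (HET 9) to 1326541 (HET 11). A count of 0 in 1 library allows 2.26 CPM in HET 11 and 4.47 CPM in HET 16, but 60.6 CPM in HET 9. It allows 14.6 to 59.2 CPM in HOM and 15.9 to 47.3 CPM in WT, so a 0 in a shallow library does not show absence. Slc27a5 and Nr0b2 had 1 count each, in HET 15 and HET 11. Cyp7a1, Cyp7b1 and Slc10a1 did not follow this division. Slc10a1 had 100, 0 and 3 counts in HOM 10, HOM 19 and HOM 21, 12 counts in HET 10 and 0 in the other 4 HET, and 1, 1 and 2 counts in WT 11, WT 12 and WT 16. Its 488 CPM in the pancreas library HOM 10 was above all 7 livers. Cyp7a1 had 18 and 28 counts in HOM 10 and HOM 21, 27 in HET 15 and 10 in WT 16, or 87.8, 217, 166 and 53.1 CPM, and 0 in the other 7 pancreata. Cyp7b1 had 14 and 4 counts in HOM 10 and HOM 21 and 8 and 1 in WT 12 and WT 16, and 0 in the other 7. Of 3 hepatocyte products looked up beside them, Alb had 0 counts in all 11 pancreata and Ttr at most 33.9 CPM, while Apoa1 had 53.6, 59.2 and 62.1 CPM in HOM 10, HOM 19 and HOM 21, 0 to 3793 CPM in HET (highest in HET 11 and HET 16) and 0 to 21.2 CPM in WT. The libraries with most Apoa1, HET 11 and HET 16, had 0 counts of Cyp7a1, Cyp7b1 and Slc10a1.

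**Figure D5:**
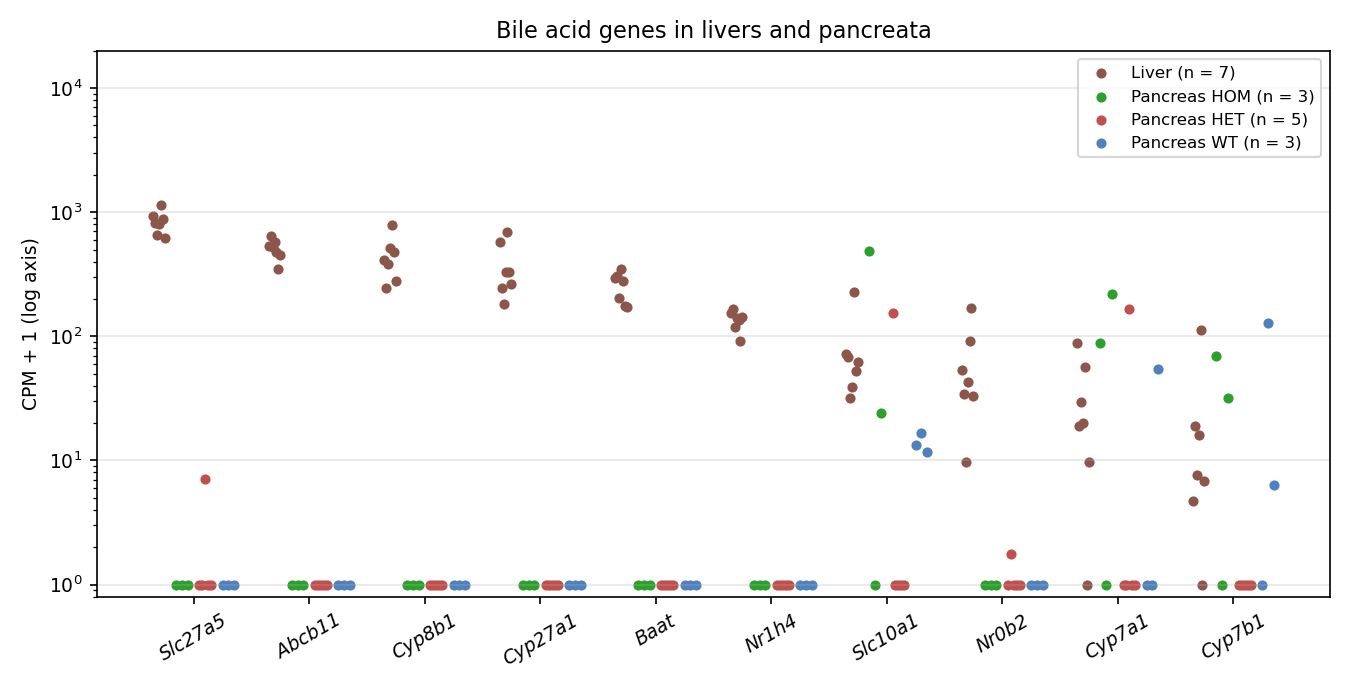
Level of each of the 10 genes as CPM + 1 on a log axis, in 7 livers (brown) and in HOM (green), HET (red) and WT (blue) pancreata, left to right for each gene. Points at 1 are libraries with 0 counts: 5 genes lie there in all 11 pancreata, while Slc10a1, Cyp7a1 and Cyp7b1 reach 488, 217 and 126 CPM.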

How the data were processed

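RNA of mouse liver and pancreas was extracted with TRI reagent and turned into 3′-end libraries by bulk MARS-seq, per the labels' protocols. Reads were handled with cutadapt and STAR on mm10, per the submitters' processing notes; versions, counting tool, annotation and use of strand are not given in the sources used here. Whole-number counts per gene were deposited, which the authors call corrected without saying for what.

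CPM were computed from the counts and library totals. Positions came from GENCODE mouse release 21 and promoter windows from RefSeq. No other gene in that annotation covers the 3′ end of a member. The 7 livers were fitted with genotype alone in edgeR 4.0.16 (R 4.3.3; filterByExpr, TMM, robust quasi-likelihood F test). P-values were adjusted by Benjamini-Hochberg over all 4803 genes that passed the filter, with a threshold of 0.05. SE is the absolute log2 fold change over the square root of F. Residual degrees of freedom were 5 and the biological coefficient of variation 35.4%. Alternatives were DESeq2 1.42.0, other scalings and filters, no robust estimation, a replicate block, leaving out each liver, and, chosen after the data were seen, thinning all livers to 1 depth and pooled ratios without HET 5. Intervals and limits cover counting error only.

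The members, the wider list, the markers and the rule for naming genes were chosen with earlier results of these data known. The rule names all members, for each role of the wider list the 2 genes with the highest mean CPM and the 2 with the smallest p, and the genes most alike in pattern. Genes listed as without overlap between groups, Mafg among them, and Fgf15, Fabp6, Fgb, Krt19, Ctrb1, Gm10800, Malat1, Alb, Apoa1 and Ttr, were named after their values were seen.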

Additional observations from a re-analysis of the deposited data

Results flagged for a closer look

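In 2 of the 10 genes a HET liver stood apart from the other 4 by a gap larger than Dixon's 95% critical value for 5 samples. Chance passes that value in about 1 of 20 groups if values are normally distributed, which was not tested for CPM. The share of all genes with such a gap was not computed, so the 2 genes are not read as a trait of bile acid genes. HET 5 had the highest HET value in 32.4% of all genes tested. Both gaps were in HET 5: Cyp7b1 at 111 CPM, where the other HET livers had 3.72 to 18.0, and Slc10a1 at 226 CPM, where they had 30.7 to 70.7.

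Signals also appeared in the pancreata, which no comparison used, above the level in all 3 WT pancreata. The rule looked only for HOM and HET libraries above the highest WT, so it could not flag an excess in WT. Cyp7b1, not flagged, was highest in a WT pancreas, with 126 CPM in WT 12 and 68.3 CPM in HOM 10. Cyp7a1 had 87.8 CPM in HOM 10, 217 CPM in HOM 21 and 166 CPM in HET 15, against 0 to 53.1 CPM in WT. Slc10a1 had 488 CPM in HOM 10 and 154 CPM in HET 10, against 10.6 to 15.8 CPM in WT. HOM 19, HET 9, HET 11 and HET 16 had 0 counts of both genes. With 0 counts of Cyp7a1, WT 11 and WT 12 still allow up to 36.9 and 47.3 CPM.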

How the results depend on the processing

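No setting but one called a bile acid gene: without a filter 1 member, Cyp7a1, passed, and no gene of the wider list passed under any setting. Over all genes, where the count was 0, it was 16 with DESeq2, 57 with no filter, 6 with a mean of at least 10 CPM, 2 in thinned libraries and 0 to 6 when each liver was left out (6 without HET 5, 4 without WT 1 and 1 without HET 1). Of 137 alternative values of single members, 134 kept their direction and their side of the threshold. Nr0b2 ran from −1.78 (without WT 2) to 0.70 (without WT 1). With the replicate number as a replicate block, 41 genes passed and Cyp8b1 turned to −0.077. Livers with the same number did not deviate together (r = −0.02 for both numbers), so the number is not taken to pair them. Under scaling by total counts the median over all genes shifted by −0.10 (log2), and no member changed direction under the scalings. With 155201 counts in WT 1, Cyp7a1 and Cyp7b1 were at the limit of detection in WT.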
